A study of Mus musculus with 5 samples.

Results

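The dividing cells of skeletal muscle surrounding a tibial fracture with muscle injury were examined in the single-cell RNA-seq library of d5 post-polytrauma (SC10). These cells were selected on measured transcripts: at least 4 of the 6 genes Mki67, Top2a, Cdk1, Ube2c, Prc1 and Tpx2 (hereafter the rule genes) had to hold 2 or more unique molecular identifiers (UMIs, each marking 1 captured RNA molecule). The rule was applied to cells with 350 to 8000 genes, under 20% of UMIs from mitochondrial genes and at least 5000 UMIs, whose barcode did not also occur in SC9. It chose 2167 of 10839 such cells, or 20.0% (exact binomial 95% interval 19.2 to 20.8). The comparison group was formed by the 3396 cells of the same library with no UMI of any rule gene (31.3%). The other 5276 cells (48.7%) of the library held some UMIs of these genes without meeting the rule. All 5 libraries of the series together held 32547 cells within the same limits on genes and mitochondrial share.

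All mice carried Prx1Cre;mTmG on a C57Bl/6 background, in which cells that have expressed Prx1Cre, active in limb mesenchyme, and their descendants carry green fluorescent protein. GFP+ cells were sorted from skeletal muscle around the tibia, without periosteum and bone marrow, and 2 mice were pooled per library. The 5 libraries were labelled d0 uninjured (SC3), d3 post-fracture (SC4), d5 post-fracture (SC5), d3 post-polytrauma (SC9) and d5 post-polytrauma (SC10). In fracture the tibia was broken without stabilization, and in polytrauma the adjacent muscles were injured as well. With 1 library per condition no difference has a replicate check, and no p-value was computed. The intervals below cover counting error only and not the spread between mice.

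The libraries differed in more than the injury. SC3, SC4, SC5, SC9 and SC10 held 5653, 6229, 6915, 2001 and 13641 barcodes, with a median of 3216, 16695, 14684, 25843 and 14242 UMIs per barcode. SC9 and SC10 shared 944 barcodes with each other but at most 3 with SC3, SC4 or SC5, which shared 405 to 525 with one another. The shared barcodes that passed the cell filter were deep in SC9 (median 41891 UMIs) and shallow in SC10 (median 875 UMIs), and keeping them changed the number of dividing cells in SC10 from 2167 to 2169. The labels of SC5 and SC9 are in doubt, because the cell number that the study gives for its d5 post-fracture sample is the barcode number of SC9. Col2a1, the main cartilage collagen gene, was at 1595 CPM (UMIs of the gene scaled to a total of 1000000) over all barcodes of SC9 and 0.135 CPM over those of SC5. Both libraries are therefore named by their number only.

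A dividing cell copies its DNA in S phase, prepares for division in G2 and separates the copies in mitosis. Cyclins bound to cyclin-dependent kinases (CDKs) drive these steps, and the genes that serve them are switched on in order: E2F factors turn on replication genes first, and complexes with B-MYB and FOXM1 turn on mitotic genes later. CDK inhibitors hold cells outside the cycle. After injury, mesenchymal progenitors of muscle leave quiescence, multiply and make fibrous matrix.

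The rule genes belong mostly to the later steps. Mki67 encodes the Ki-67 protein that coats mitotic chromosomes, and Top2a encodes the topoisomerase that untangles DNA. Cdk1 is the kinase that starts mitosis, Ube2c the ubiquitin-conjugating enzyme that serves the anaphase-promoting complex, Prc1 a bundler of spindle microtubules and Tpx2 a spindle assembly factor. In GENCODE M21 on GRCm38 (mm10) Mki67 (ENSMUSG00000031004) lies at chr7:135689784-135716361, Top2a (ENSMUSG00000020914) at chr11:98992943-99024189 and Cdk1 (ENSMUSG00000019942) at chr10:69335146-69352938. Ube2c (ENSMUSG00000001403) lies at chr2:164769898-164778822, Prc1 (ENSMUSG00000038943) at chr7:80294450-80316259 and Tpx2 (ENSMUSG00000027469) at chr2:152847964-152895321.

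Promoters of genes that move together through the cycle are shown for the rule genes held by the RefSeq promoter table, for Cdc20, a mitotic gene, and for Mcm5, a replication gene. The sequences are from RefSeq on GRCm38.p6 and run 5′ to 3′ on the strand of the gene, from 150 bases before the RefSeq start to the last base before the first annotated transcript start. Capitals mark CCAAT (bound by NF-Y), TTTGAA (the cell cycle homology region) and the E2F spellings TTTCCCGC, TTTCGCGC, TTTGCCGC and TTTGGCGC, each read on either strand, so that ATTGG and TTCAAA stand for CCAAT and TTTGAA on the other strand. No spelling contains another.
Mki67, chr7:135716380-135716529, minus strand: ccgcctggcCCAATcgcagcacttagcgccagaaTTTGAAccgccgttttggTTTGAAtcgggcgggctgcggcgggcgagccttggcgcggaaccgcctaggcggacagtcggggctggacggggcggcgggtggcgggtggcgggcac
Top2a, chr11:99024190-99024339, minus strand: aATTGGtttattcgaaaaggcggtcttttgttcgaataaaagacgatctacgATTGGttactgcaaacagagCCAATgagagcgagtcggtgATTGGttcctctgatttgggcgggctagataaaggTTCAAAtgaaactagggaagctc
Cdk1, chr10:69352939-69353062, minus strand: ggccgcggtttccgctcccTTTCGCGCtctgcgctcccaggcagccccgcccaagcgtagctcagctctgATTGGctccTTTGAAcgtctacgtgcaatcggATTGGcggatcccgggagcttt
Ube2c, chr2:164769779-164769897, plus strand: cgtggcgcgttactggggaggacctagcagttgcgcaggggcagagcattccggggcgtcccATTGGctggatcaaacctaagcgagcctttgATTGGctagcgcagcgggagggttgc
Prc1, chr7:80294301-80294449, plus strand: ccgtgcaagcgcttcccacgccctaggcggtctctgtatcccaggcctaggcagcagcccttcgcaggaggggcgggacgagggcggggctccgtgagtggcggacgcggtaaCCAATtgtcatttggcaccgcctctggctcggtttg
Cdc20, chr4:118437353-118437493, minus strand: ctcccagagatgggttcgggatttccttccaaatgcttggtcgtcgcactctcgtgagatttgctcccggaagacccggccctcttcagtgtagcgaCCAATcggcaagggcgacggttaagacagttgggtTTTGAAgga
Mcm5, chr8:75109359-75109508, plus strand: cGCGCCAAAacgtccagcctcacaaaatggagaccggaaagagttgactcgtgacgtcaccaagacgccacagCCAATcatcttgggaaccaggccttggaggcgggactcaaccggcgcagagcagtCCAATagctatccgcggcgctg
Every rule gene shown held CCAAT in this window, and the Top2a promoter held it 4 times. TTTGAA stood in the windows of Mki67, where it occurred 2 times, and of Top2a, Cdk1 and Cdc20. An E2F spelling stood in those of Cdk1 and Mcm5. The windows of other cell cycle genes were searched too and are not shown. Those of Ccnb1, Ccnb2, Plk1, Cenpf and Aurka held CCAAT without TTTGAA, and those of Cenpa, Cenpe and Birc5 held no motif. Those of Rrm2 and Clspn held CCAAT without an E2F spelling, and those of Ccne1 and Mybl2 held no motif. Because they end at the first annotated start, these windows differed in length. That of Cenpa had 41 bases, Ccnb1 66, Clspn 105 and Ccne1 106, against 150 for Birc5 and Mybl2. A motif absent from a short window is not shown to be absent from the promoter. A match is a run of letters and not a measured binding site.

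Over the full 250 bases before the start, 5 of the 6 promoters of the 5 matched rule genes (all but Tpx2) held TTTGAA (83.3%). CCAAT occurred in 108 of 185 promoters (58.4%) of the 161 matched genes of 11 cell cycle gene lists, and in 33.8% of all 32851 promoters. TTTGAA occurred in 11 of 26 promoters of spindle motor and cytokinesis genes (42.3%), in 3 of 30 of replication origin and fork genes (10%) and in 16.0% of all promoters. An E2F spelling occurred in 7 of 30 promoters of replication genes (23.3%) and in 2 of 26 of spindle genes (7.69%), against 1.86% of all promoters. Of the 12 promoters of 10 matched fibrous matrix genes, 3 held CCAAT, 3 TTTGAA (25%) and none an E2F spelling. The mitotic lists were not alike, with TTTGAA in 16% of kinetochore promoters and 19.0% of those of mitotic kinases, and in 45.5% of those of condensin and chromatin genes. The E2F spellings were most frequent in the list of transcription factors (33.3% of 12 promoters).

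The number of rule genes per cell had its highest counts at both ends. In SC10, 1145, 736, 524, 437, 495 and 1235 cells held 2 or more UMIs of 1, 2, 3, 4, 5 and 6 rule genes, so that 57.0% of the dividing cells carried all 6. The median depth went from 13248 UMIs in cells with none of the rule genes to 25782 in the dividing cells. The median number of genes detected was 3376 and 4923. Thinned to 5000 UMIs each, the 2 groups had medians of 1871 and 1965 genes per cell, a smaller gap. The median mitochondrial share was 3.61% and 3.04%. Cells with the highest doublet scores made up 154 (4.53%) of the comparison group and 355 (16.4%) of the dividing cells, and their part in the differences between the groups was not tested beyond leaving them out, which left 1812 dividing cells and 346 genes at least 2-fold higher.

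**Figure D1:**
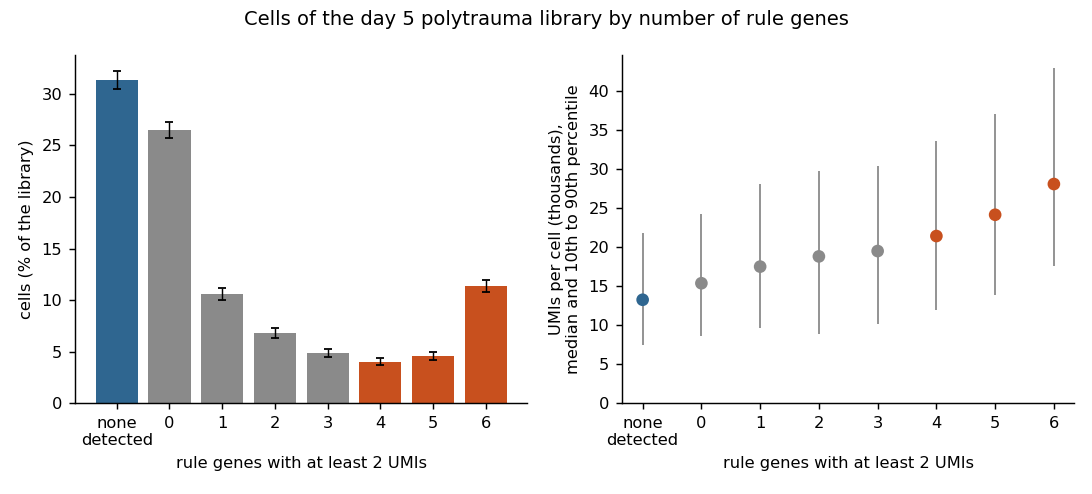
Left, share of the 10839 cells of SC10 in each class of rule genes with 2 or more UMIs, with exact binomial 95% intervals; right, UMIs per cell, points at the median and lines from the 10th to the 90th percentile. Blue is the class with no UMI of a rule gene (3396 cells) and orange the dividing cells, of which 1235 of 2167 held all 6 genes; the median depth climbs from 13248 to 28057 UMIs.

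As the rule used them, the rule genes are given as a description. In the dividing cells Ube2c was at 413 CPM with a median of 6 UMIs per cell, Top2a at 378 CPM with 9 UMIs and Cdk1 at 287 CPM with 7 UMIs. Prc1 was at 222 CPM with 4 UMIs, Mki67 at 217 CPM with 5 UMIs and Tpx2 at 175 CPM with 4 UMIs. Each was undetected in 45 to 139 of the 2167 cells. Cells just outside the rule, with 3 of the 6 genes, had 132 CPM of Top2a and 79.7 CPM of Ube2c. Cells just inside it, with 4 of 6, had 190 and 118 CPM, and those with all 6 had 462 and 559 CPM. Since the classes count the same genes, this order follows from the rule.

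The dividing cells were mesenchymal by their transcripts. Col1a1, the type I collagen gene, was detected in 2166 of the 2167 cells after thinning to 5000 UMIs, and Prrx1, the transcription factor whose promoter drives the Cre, in 1518 (70.1%, against 69.0% of cells with none of the rule genes). Markers of cells outside the sort were rare. At least 2 of 10 hematopoietic genes were found in 5 thinned dividing cells (0.231%, exact interval 0.0750 to 0.538) and in 14 (0.412%) of the comparison group. The 10 genes summed to 14.5 CPM in the dividing cells and 32.8 CPM in the others, with Lyz2, the lysozyme gene of myeloid cells, the most abundant at 4.81 and 12.6 CPM. The 1261 comparison cells with 15103 to 40456 UMIs are called cells of matched depth below. These limits are the 10th and the 90th percentile of the dividing cells. Only the range was matched, as the median of the 1261 cells was 19084 UMIs against 25782 in the dividing cells. In the 1261 cells Lyz2 was at 2.16 CPM and the 10 genes summed to 8.18 CPM, so that the dividing cells were then the higher group. At least 2 of 6 endothelial genes were found in 0 of 2167 thinned dividing cells and in 2 of the others. The upper limit of 0.138% covers detection in thinned cells and not the share of endothelial cells. The 6 endothelial genes summed to 1.94 and 5.11 CPM, with Tek, an angiopoietin receptor, the most abundant, and Kdr and Cldn5 were detected in 0 thinned dividing cells. The myogenic list had 1 such cell and 0, and summed to 2.23 and 0.641 CPM. Its leading gene Myog, the myogenin gene, was at 1.13 and 0.310 CPM but in 1 and 11 thinned cells, and Pax7 was detected in 0 thinned cells of either group. The Schwann cell list had 0 such cells and 1, and summed to 6.24 and 13.7 CPM with S100b leading. The adipocyte list had 0 such cells in both groups and summed to 0.0857 and 0.145 CPM, with only Plin1 above 0 in the dividing cells. No cell class in this sorted library is known to lack mesenchymal transcripts, so the level of free RNA behind these shares was not measured.

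Transcripts of red blood cells differed by level more than by cell number. Hbb-bs, the adult beta globin gene, was at 9.30 CPM in the dividing cells and 63.0 CPM in the others, 6.77-fold lower (6.18 to 7.43), found in 19 and 49 thinned cells. Its log2 ratio of -2.63 became -3.51 at matched depth and -1.07 without the highest doublet scores, and that of Hba-a1 went from -2.89 to -3.75 and -1.62. The 4 erythroid genes summed to 12.8 and 96.9 CPM. Hba-a1 was at 1.85 and 20.1 CPM, while Alas2, which makes heme in erythroid cells, was detected in 0 thinned dividing cells and in 3 of the others. At least 2 erythroid genes were found in 4 thinned dividing cells (0.185%) and 8 of the others (0.236%), so the difference in level lay in few cells. Its part in the other differences was not tested.

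Over the 7610 genes with a mean of at least 10 CPM in the 2 groups, 323 were at least 2-fold higher in the dividing cells (4.24%) and 137 at least 2-fold lower (1.80%), on the scale of CPM plus 1. The median log2 ratio of all of them was 0.05. Since the rule used this contrast, the counts are a description without a test. Of the 200 genes on the 11 cell cycle lists, 166 passed the level filter, 140 were at least 2-fold higher and 1 was at least 2-fold lower. Their median log2 ratio was 2.54, and together they took 2.11% of the UMIs of the dividing cells and 0.741% of those of the others. Of the other 183 higher genes, 182 were on none of the lists. When the comparison was restricted to the 1261 cells with none of the rule genes and 15103 to 40456 UMIs, 303 genes were at least 2-fold higher and 58 lower. At this matched depth 136 of the 137 were still below 0 and a median log2 ratio of -0.95 in place of -1.30.

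**Figure D2:**
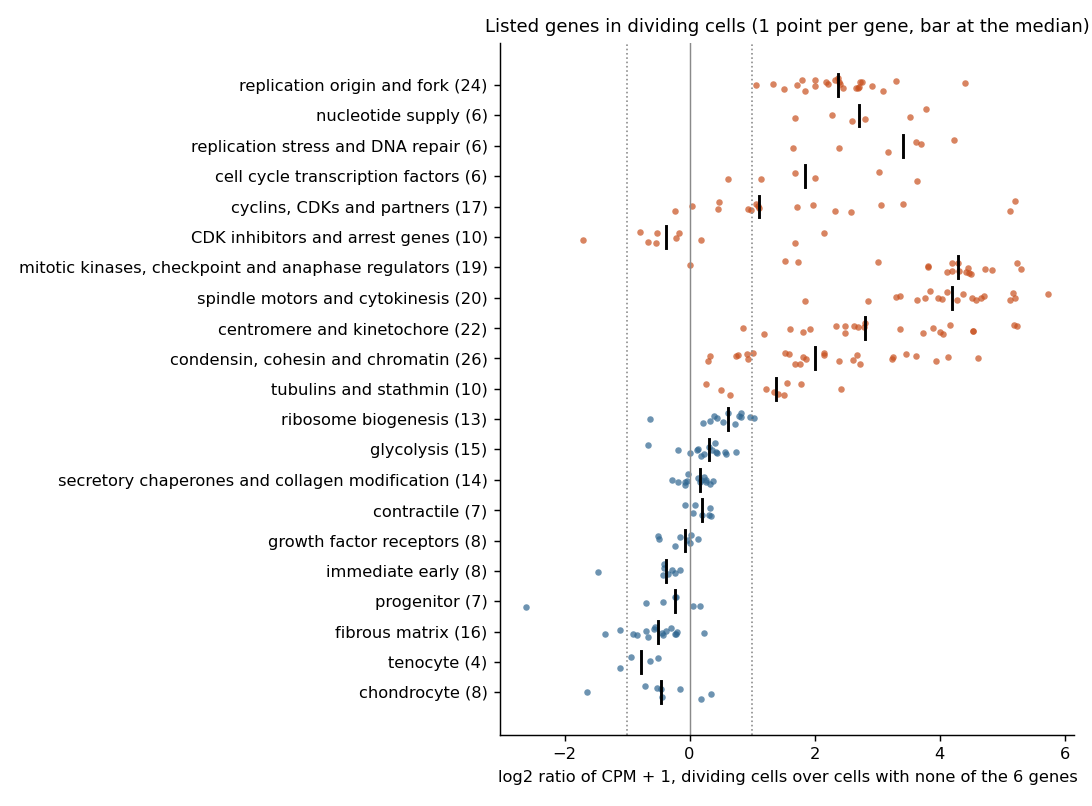
Log2 ratio of CPM plus 1 in dividing cells over cells with none of the rule genes, for each listed gene past the level filter (number in brackets), with black bars at the medians and dotted lines at 2-fold. Orange lists concern the cell cycle and blue lists other functions; the median is 4.29 for mitotic kinases and checkpoint genes and -0.50 for fibrous matrix genes.

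Genes that copy DNA were higher throughout. All 24 replication origin and fork genes past the level filter (of 30) were at least 2-fold higher, with a median log2 ratio of 2.38. Pclaf, which binds the PCNA clamp, was at 382 CPM against 17.2, 22.2-fold higher (20.7 to 23.8). Lig1, the ligase that joins the fragments of the lagging strand, was at 89.1 against 12.6 CPM. Mcm6 of the replicative helicase was at 76.8 against 21.3 CPM, and Gmnn, the geminin inhibitor of repeated origin licensing, at 76.4 against 6.82 CPM. The 6 genes of nucleotide supply were all higher, with a median of 2.71. Rrm2, the regulated subunit of ribonucleotide reductase, was at 136 against 10.8 CPM and Tk1, thymidine kinase, at 117 against 7.61 CPM. Dut, which removes dUTP, was at 266 against 82.2 CPM. All 6 tested genes of replication stress and DNA repair were higher (median 3.41), among them Clspn, the claspin checkpoint adaptor, at 60.9 against 3.99 CPM.

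Cyclins of different phases differed by different factors. Of 17 tested cyclins, CDKs and partners 11 were at least 2-fold higher and none lower, with a median log2 ratio of 1.11. Ccna2, the cyclin of S phase and G2, was at 134 against 2.65 CPM, 50.5-fold higher (42.4 to 60.7), and Ccnb1, the mitotic cyclin, at 126 against 2.63 CPM, 47.9-fold higher (40.2 to 57.6). Ccne2, a cyclin of the entry into S phase, was at 20.8 against 2.61 CPM. Ccne1, its companion, was at 21.7 against 10.5 CPM, 2.07-fold higher (1.86 to 2.30) but short of 2-fold on the scale of CPM plus 1. Of the D cyclins, which link growth signals to the cycle, Ccnd1 was at 50.7 against 26.1 CPM, 1.94-fold higher (1.82 to 2.08), Ccnd2 at 110 against 130 CPM and Ccnd3 at 72.6 against 70.8 CPM. Cdk4, the kinase partner of the D cyclins, was at 276 against 199 CPM.

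CDK inhibitors and arrest genes did not share 1 direction. Of 10 tested, 2 were at least 2-fold higher and 1 lower, with a median log2 ratio of -0.37. Cdkn1c, which encodes p57, was at 24.9 against 83.9 CPM, 3.37-fold lower (3.17 to 3.58), and 2.21-fold lower at matched depth. Cdkn2d (p19) was at 54.7 against 11.6 CPM and Cdkn2c (p18) at 48.1 against 14.3 CPM, both higher. Cdkn1a (p21) was at 41.3 against 59.8 CPM and Cdkn1b (p27) at 29.7 against 33.6 CPM, both short of 2-fold. At matched depth Cdkn1b was 1.07-fold higher in the dividing cells (27.6 CPM in the others). Btg2 and Btg1, antiproliferative cofactors, were at 324 against 563 CPM and 181 against 287 CPM. Gas1, found first in growth-arrested fibroblasts, was at 201 against 291 CPM. Among the 6 tested transcription factors of the cycle (median 1.84, 5 at least 2-fold higher), Mybl2, which encodes B-MYB, was at 19.7 against 0.662 CPM and Foxm1 at 26.1 against 2.32 CPM. E2f1, the S phase activator, was at 31.9 against 9.28 CPM.

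The lists of mitotic kinases and of spindle genes had the highest medians of the 11 cell cycle lists. Of 19 mitotic kinases, checkpoint and anaphase regulators 18 were at least 2-fold higher (median 4.29). Birc5, the survivin subunit of the chromosomal passenger complex, was at 356 against 19.5 CPM, and its partner Cdca8, or borealin, at 150 against 4.26 CPM. Plk1, the polo kinase, was at 79.1 against 1.03 CPM, 76.5-fold higher (57.9 to 103), and Cdc20, an activator of the anaphase-promoting complex, at 134 against 5.31 CPM. The exception was Pttg1, the securin gene, at 22.1 against 21.9 CPM. All 20 tested genes of spindle motors and cytokinesis were higher (median 4.20), with Cenpe, a kinetochore motor, at 132 against 2.63 CPM and Hmmr, a spindle protein, at 96.6 against 1.72 CPM. Of 22 centromere and kinetochore genes 21 were higher (median 2.80). Cenpa, the centromeric histone, was at 213 against 30.0 CPM and Cenpf, a kinetochore protein of G2 and mitosis, at 167 against 3.45 CPM.

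Chromatin and cytoskeletal genes were higher by smaller factors. Of 26 condensin, cohesin and chromatin genes 20 were at least 2-fold higher (median 2.01). H2afz, the histone variant H2A.Z, was at 1786 against 591 CPM and Hmgb2, a DNA-bending protein, at 654 against 58.6 CPM. Of 10 tubulin and stathmin genes 7 were at least 2-fold higher (median 1.38), with Tubb5 at 1686 against 636 CPM and Stmn1, which regulates microtubule turnover, at 310 against 57.0 CPM. Tubulin genes resemble each other in sequence, and reads could be split among them.

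Outside the lists, the 12 genes with the largest log2 ratio among those at 50 CPM or more are given next. The cells were chosen by cell cycle genes, and the functions of these 12 were not tested as a group. Hist1h2ap was at 283 against 3.70 CPM, 76.4-fold higher (66.0 to 89.1), and Hist1h1b at 133 against 1.47 CPM. Hist1h1e was at 55.2 against 3.06 CPM and Hist1h2ae at 57.3 against 3.41 CPM. The replication-dependent histone genes are near-identical copies whose transcripts mostly lack the poly(A) tail that the assay captures, so their values are uncertain. Plk4, the kinase of centriole duplication, was at 83.6 against 8.35 CPM and Dbf4, the activator of the origin kinase CDC7, at 72.9 against 7.51 CPM. Diaph3, an actin-nucleating formin of the cleavage furrow, was at 62.1 against 4.05 CPM and Mxd3, a MAX-binding repressor, at 55.3 against 2.34 CPM. Cdca3, a mitotic entry factor, was at 130 against 19.2 CPM, and Knstrn, a spindle protein, at 57.3 against 7.42 CPM. Cdkn3, a CDK phosphatase, was at 63.6 against 9.57 CPM, and Hells, a chromatin remodeller, at 55.2 against 8.44 CPM.

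Of genes outside the lists, the 12 with the smallest log2 ratio at the same level limit are given with what they encode. C3, the central complement protein, was at 11.8 against 73.3 CPM, 6.23-fold lower (5.74 to 6.77), and Lbp, which binds lipopolysaccharide, at 9.56 against 54.4 CPM. Gas6, a ligand of TAM receptors named for its induction on growth arrest, was at 78.1 against 399 CPM, 5.11-fold lower (4.94 to 5.28). Igf1, the insulin-like growth factor, was at 122 against 504 CPM, 4.13-fold lower (4.03 to 4.24). Eln, elastin, was at 19.6 against 95.1 CPM and Mfap4, of elastic fibers, at 91.3 against 313 CPM. Apod, a lipid carrier, was at 25.6 against 111 CPM and Abi3bp, a matrix protein, at 53.5 against 190 CPM. Islr, a secreted marker of mesenchymal cells, was at 23.3 against 88.3 CPM and Chl1, an adhesion molecule, at 13.8 against 50.4 CPM. Tcea3, a transcription elongation factor, was at 17.6 against 61.8 CPM and Fxyd1, a regulator of the sodium pump, at 25.9 against 89.4 CPM. At matched depth Gas6 was 3.70-fold lower, Igf1 2.85-fold, C3 3.97-fold and Apod 2.15-fold. Eln was then 2.67-fold lower, Islr 2.31-fold and Mfap4 2.01-fold.

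Matrix genes were lower by less than 2-fold for the most part. The 16 fibrous matrix genes summed to 41122 CPM in the dividing cells and 59867 CPM in the others, and 15 of the 16 were below 0, with a median log2 ratio of -0.50. Of these, 2 passed 2-fold, Lum (lumican) at 216 against 554 CPM, 2.57-fold lower (2.51 to 2.62), and Dcn (decorin) at 833 against 1798 CPM, 2.16-fold lower (2.14 to 2.18). At matched depth Lum remained past 2-fold and Dcn was 1.92-fold lower. Col1a1 was at 8106 against 11933 CPM, Col1a2 at 8677 against 11811 CPM and Col3a1 at 5672 against 8961 CPM. Sparc, a collagen-binding protein, was at 6345 against 8462 CPM. Tnc, tenascin of healing tissue, was the 1 gene above 0, at 640 against 546 CPM. The 14 secretory chaperones and collagen-modifying enzymes had a median log2 ratio of 0.16 (-0.05 at matched depth) and none past 2-fold. Serpinh1, the collagen chaperone, was at 2116 against 2163 CPM.

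Progenitor and lineage genes were mostly level or lower. Among the 7 tested progenitor genes (median -0.23), Pi16, of an adventitial fibroblast state, was at 3.15 against 24.3 CPM, 7.71-fold lower (6.60 to 9.06). Ly6a, the Sca-1 gene, was at 287 against 383 CPM, Cxcl12, a chemokine of stromal progenitors, at 235 against 382 CPM and Prrx1 at 282 against 271 CPM. Comp, a cartilage and tendon matrix protein, was at 49.4 against 156 CPM, 3.15-fold lower (3.02 to 3.29), the 1 gene past 2-fold of 8 chondrocyte genes (median -0.45). Sox9, the chondrogenic factor, was at 96.2 against 158 CPM and Col2a1 at 76.8 against 67.6 CPM. Against cells of matched depth (108 CPM) Col2a1 was 1.41-fold lower, so its direction turned. The chondrocyte genes did not share 1 direction. Hapln1 was detected in 1.34% of thinned dividing cells against 0.648%, Sox6 in 1.62% against 0.766% and Matn3 in 2.45% against 1.91%. Fgfr3 and Col2a1 were also detected more often, and Comp (11.5% against 29.6%), Sox9, Col11a1, Acan, Sox5, Col9a1, Col11a2 and Cnmd less often. Sox6, Matn3 and Fgfr3 lay below the level filter, and at matched depth Hapln1 was at a log2 ratio of -0.36. Thinned dividing cells with at least 2 chondrocyte genes made up 26.4% (24.6 to 28.4) against 44.5% (42.8 to 46.2). The tenocyte list gave 18.7% (17.1 to 20.4) against 27.0% (25.5 to 28.5). Thbs4, a tendon matrix protein, was at 352 against 674 CPM and Tnmd, tenomodulin, at 52.7 against 116 CPM, 2.20-fold lower and 1.56-fold at matched depth. The mural list gave 4.71% (3.85 to 5.68) against 4.95% (4.24 to 5.73), and its gene Rgs5, of pericytes, was at 8.87 against 28.3 CPM in 25 and 55 thinned cells. Against cells of matched depth (5.39 CPM) Rgs5 was 1.65-fold higher, so its direction turned. The osteoblast list gave 0.831% and 0.766%. Of its genes, Runx2, the osteogenic factor, was at 62.5 against 53.0 CPM, and Ibsp, bone sialoprotein, at 4.69 against 22.1 CPM in 8 and 28 thinned cells, 4.70-fold lower (2.82-fold at matched depth).

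Read the other way, the share of dividing cells among all SC10 cells with a thinned UMI of a gene ran on both sides of 20.0%. Among cells with Comp it was 11.1% (9.87 to 12.5), among those with Cdkn1c 10.8% (9.41 to 12.3) and among those with Pi16 8% (5.08 to 11.9). Among cells with Prrx1 it was 20.4% (19.5 to 21.3) and among those with Col2a1 20.1% (15.5 to 25.4). Among cells with Prg4, the lubricin gene, it was 23.1% (21.7 to 24.5), and with Acta2, smooth muscle actin, 22.2% (21.3 to 23.1). At matched depth Prg4 was 1.23-fold lower in the dividing cells, opposite to its 1.07-fold higher level against all cells with none of the rule genes. A single UMI can be free RNA, so these shares do not show that each such cell expressed the gene.

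Other programs differed little between the groups. Of 13 ribosome biogenesis genes 12 were above 0 (median 0.61) and only Dkc1, dyskerin, passed 2-fold, at 57.1 against 27.4 CPM (1.81-fold higher at matched depth). Ncl (nucleolin) was at 748 against 420 CPM, while Myc was at 55.6 against 86.8 CPM. None of 15 glycolysis genes passed 2-fold (median 0.31), with Ldha, lactate dehydrogenase, at 1103 against 731 CPM and Gapdh at 2223 against 1796 CPM. None of 82 genes of oxidative phosphorylation (median 0.07), of 80 ribosomal protein genes (median 0.02) or of 13 mitochondrial genes (median -0.21) passed 2-fold. Nor did any of the 7 contractile genes (median 0.20), the 5 of lubricin and hyaluronan (median -0.07), the 8 growth factor receptors (median -0.08) or the 5 chemokines (median 0.05). Acta2 was at 1328 against 1055 CPM, Tnfaip6, a hyaluronan-binding protein, at 423 against 658 CPM, Fgfr1 at 190 against 223 CPM and Cxcl1, which draws in neutrophils, at 1051 against 1016 CPM. All 8 immediate early genes, which respond to stress and cell isolation, were below 0 (median -0.38), and Atf3 passed 2-fold at 99.3 against 275 CPM. At matched depth their median was -0.10, Fos was at a log2 ratio of 0.10 and Egr1 at 0.01. The medians of several other lists crossed 0 at matched depth, to -0.05 for glycolysis, -0.04 for contractile genes, -0.22 for chemokines and 0.04 for mitochondrial genes, with Gapdh at -0.02 and Cxcl1 at -0.11. Those of growth factor receptors and of ribosomal protein genes crossed it too, to 0.02 and -0.02.

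Matrix levels differed between the classes below the boundary of the rule more than between those above it. The summed fibrous matrix level was 59867 CPM in cells with none of the rule genes, 45465 with 1 of them at 2 or more UMIs, 41963 with 2, and between 41000 and 41453 from 3 to 6. Dcn followed at 1798, 1006, 866 and then 806 to 873 CPM, and Cdkn1c at 83.9, 31.1, 24.9 and then 18.7 to 27.1 CPM. The summed level of the 11 cell cycle lists instead kept climbing, from 7409 CPM to 17017 with 3 and 22592 with 6 rule genes. Ccnb1 was at 2.63, 50.6 and 167 CPM in these 3 classes. The replication list alone was highest with 4 rule genes, at 1795 CPM, and stood at 1414 CPM with all 6. Ccne2 was highest with 4 rule genes, at 38.3 CPM, and stood at 12.3 CPM with all 6. Depth was also greater with each added rule gene, and its part in these levels was not tested.

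**Figure D3:**
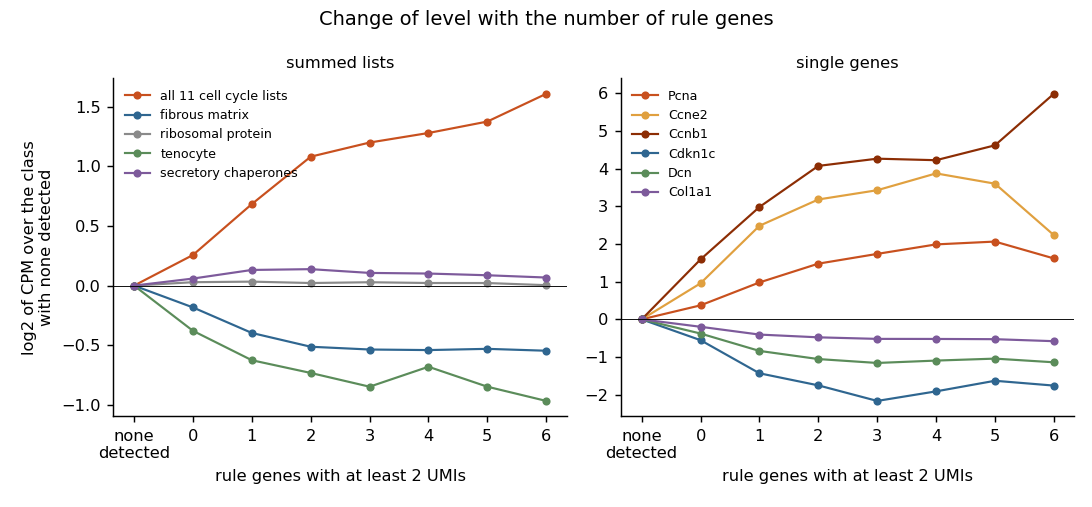
Log2 of the CPM over the class with no UMI of a rule gene (leftmost), against the number of rule genes with 2 or more UMIs, for summed lists (left) and single genes (right) in SC10; the class of 0 holds cells with single UMIs only. Fibrous matrix goes from 59867 CPM to 41963 with 2 rule genes and 41000 with 6, while Ccnb1 reaches 167 CPM and Ccne2 is highest, at 38.3 CPM, with 4.

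The dividing cells were not alike among themselves. Each cell was given a score, the UMIs of the replication list as a percentage of those of the replication and spindle lists together. All 2167 cells held UMIs of both lists, and the score ran from 4.35 to 97.6% with a median of 53.8%. The cells were divided by score into 4 bins of 542, 542, 542 and 541, the first ending at 35.5%, the second at 53.8% and the third at 72.7%. These bins are ranges of a continuous score and not cell types. Their median depths were 23884, 26634, 26477 and 26010 UMIs.

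Of 122 cell cycle genes past the level filter that neither the score nor the rule used, 34 were at least 2-fold higher in the first bin than in the last, 13 at least 2-fold higher in the last, and 75 within 2-fold. Over all 7610 genes the first was so for 1.37% and the second for 0.959%. The levels ran in 1 direction over the 4 bins for 95 of the 122 genes and not for 27, such as Wee1, an inhibitory kinase of CDK1, at 32.8, 33.6, 30.0 and 31.0 CPM. The share of all 7610 genes in 1 order was not counted, so 95 of 122 is a description only. Sums outside the cycle, such as that of glycolysis genes, also ran in 1 order. Ccnb1 was at 271, 150, 68.7 and 26.1 CPM from the most spindle-rich bin to the most replication-rich one, and Cenpf at 398, 185, 77.1 and 29.4 CPM. Cenph, of the inner kinetochore, ran opposite to Cenpf, at 35.7, 46.6, 58.9 and 62.1 CPM. Cdc20 was at 289, 162, 65.9 and 34.0 CPM, and Plk1 at 147, 107, 46.9 and 20.6 CPM. Ccna2 followed the same order over a smaller range, at 205, 143, 115 and 78.3 CPM. Ccne2 ran the other way, at 2.08, 5.82, 23.5 and 50.5 CPM, as did Ccne1, the other cyclin E gene, at 7.13, 12.8, 24.9 and 41.0 CPM. E2f1 was at 11.1, 19.0, 35.1 and 61.1 CPM, Mybl2 at 7.95, 13.1, 22.6 and 34.3 CPM and Rrm2 at 71.3, 102, 151 and 214 CPM. In the first bin Ccne2, at 2.08 CPM, stood at the level of cells with none of the rule genes (2.61 CPM).

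The inhibitors Cdkn2c and Cdkn2d followed the mitotic genes, Cdkn2c at 71.9, 56.6, 39.8 and 25.8 CPM and Cdkn2d at 76.8, 70.8, 51.9 and 20.6 CPM. Cdkn1c was at 27.8, 30.5, 22.1 and 19.2 CPM, below the 83.9 CPM of the comparison group in each bin. The rule genes were all highest in the first bin, with Ube2c at 790 CPM against 111 in the last and Mki67 at 305 against 117 CPM. Fibrous matrix summed to 45218, 40416, 41515 and 37720 CPM, in each bin under the 59867 CPM of the comparison group. Glycolysis genes summed to 7267, 8062, 8256 and 8783 CPM, and ribosome biogenesis genes to 3321, 3805, 3914 and 4432 CPM, both lowest in the spindle-rich bin.

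**Figure D4:**
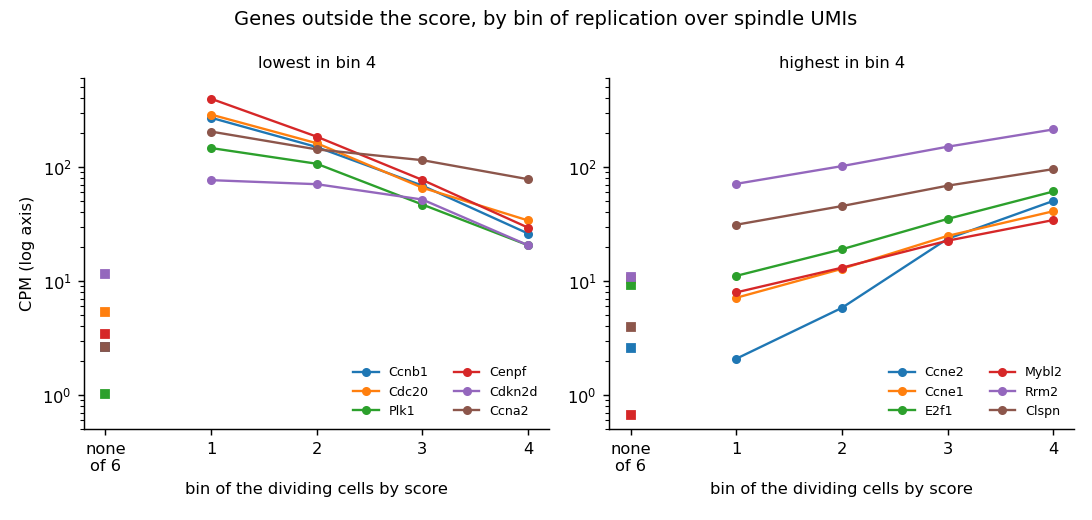
CPM on a log axis in the 4 bins of the dividing cells, from bin 1 (most spindle UMIs) to bin 4 (most replication UMIs), with squares for the 3396 cells with none of the rule genes (some of which overlap). Ccnb1 goes from 271 to 26.1 CPM (left) and Ccne2 from 2.08 to 50.5 CPM (right).

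The same rule found dividing cells in the other injured libraries. It chose 732 of 4789 cells in SC4 (15.3%, 14.3 to 16.3), 630 of 5512 in SC5 (11.4%, 10.6 to 12.3), 47 of 551 in SC9 (8.53%, 6.33 to 11.2) and 1 of 893 in the uninjured SC3 (0.112%, 0.00284 to 0.622). The median depth of the cells tested was 19250, 16174, 19858 and 5842 UMIs, against 16761 in SC10. After thinning every cell to 5000 UMIs, the shares were 0.522%, 0.272%, 2.90% and 0.112%, against 4.49% in SC10. SC9 changed with the shared barcodes: when a barcode was kept in the library with at least 10 times the UMIs, 204 of 1409 cells (14.5%, 12.7 to 16.4) met the rule. The share was highest in SC10 under each of these counts, but 1 library per condition gives no spread to set it against. SC9 and SC10 also come from another set of barcodes than SC3, SC4 and SC5. By the labels that difference cannot be told apart from the injury, and if the labels of SC5 and SC9 were exchanged it would go with the day.

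**Figure D5:**
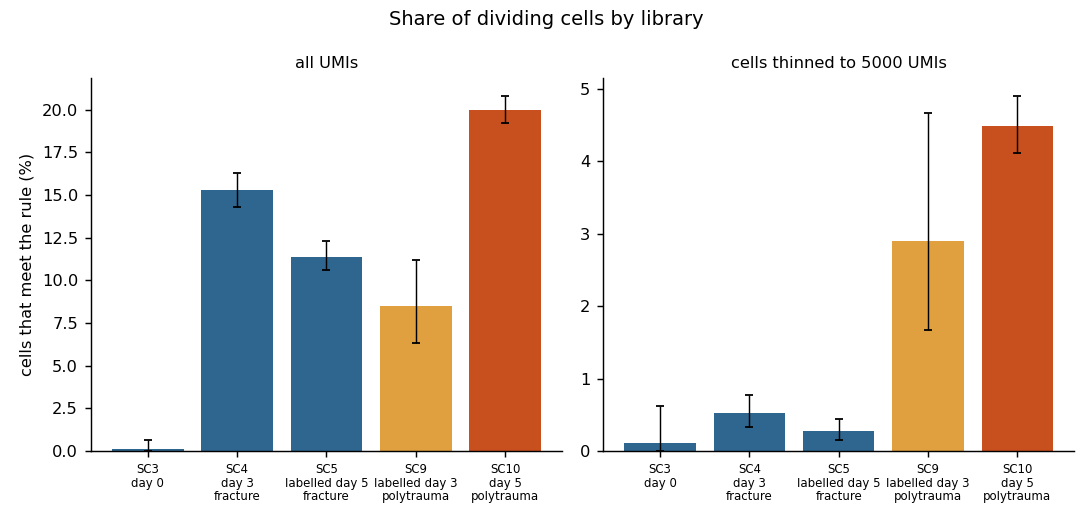
Percent of cells that meet the rule in each library, with exact binomial 95% intervals, from all UMIs (left) and after thinning each cell to 5000 UMIs (right), with SC10 in orange, SC9 in yellow and the libraries of the other barcode set in blue. SC10 stands at 20.0% and 4.49%; SC4 is at 15.3% and 0.522%, and the labels of SC5 and SC9 are in doubt.

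The levels of the rule genes themselves differed between the libraries. In dividing cells Mki67 was at 52.1 CPM in SC4, 56.3 in SC5, 306 in SC9 and 217 in SC10. Prc1 was at 111, 111, 231 and 222 CPM, and Tpx2 at 90.7, 84.6, 179 and 175 CPM. Cdk1 was at 273, 196, 278 and 287 CPM and Ube2c at 479, 416, 366 and 413 CPM. The share of dividing cells with all 6 genes was 19.9%, 15.1%, 57.4% and 57.0%. Hist1h2ap was at 0, 2.28, 1118 and 283 CPM. Within cells chosen by the rule genes, SC9 and SC10 thus stood together, apart from SC4 and SC5, in Mki67, Prc1, Tpx2 and this histone gene. Over all filtered cells of SC4, SC5, SC9 and SC10, Prc1 was at 31.9, 30.3, 30.8 and 73.9 CPM. Tpx2 was there at 30.8, 26.2, 25.4 and 69.1 CPM, so that SC9 without its shared barcodes stood near SC4 and SC5 in both. Mki67 was there at 18.3, 17.4, 41.5 and 84.6 CPM. With the deep shared barcodes kept (1409 cells), SC9 was at 49.9 CPM of Prc1, 40.5 of Tpx2 and 62.4 of Mki67. It then stood above SC4 and SC5 and below SC10 in each.

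Within each library, dividing cells were compared with cells with none of the rule genes. These contrasts share no cells with the one in SC10, though the rule fixes the direction for cell cycle genes. In SC4, 3.78% of 6276 genes were at least 2-fold higher and 3.41% lower, in SC5 4.58% and 3.10% of 6293, and in SC9 7.37% and 7.72% of 8062. Of the 323 genes higher in SC10, 245 passed the level filter in SC4 and 220 of these were at least 2-fold higher there. These 220 were 89.8% of the 245 and 94.4% of the 233 genes higher in SC4 and past the filter in both. In SC5 the overlap was 219 genes, 90.1% of 243 and 77.9% of 281. In SC9 it was 292 genes, 93.6% of 312 and 58.9% of 496. Of the lower genes, 94 were shared with SC4 (90.4% of 104 and 49.5% of 190), 78 with SC5 (76.5% of 102 and 49.4% of 158) and 99 with SC9 (73.9% of 134 and 21.6% of 458).

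For Gas6, C3 and Igf1, chosen after their values were seen, the other libraries gave the following levels. Gas6 was at 32.8 against 183 CPM in SC4, 31.4 against 121 in SC5 and 291 against 899 in SC9. C3 was at 14.5 against 120 CPM, 24.3 against 132 and 36.2 against 304. Igf1 was at 149 against 533 CPM, 93.4 against 255 and 635 against 1399. In each of these libraries, and in SC10, all 3 genes were lower in the dividing cells. Not every gene lower in SC10 was lower elsewhere: of the 134 tested in SC9, 127 were below 0 there. Comp was at 653 against 577 CPM in SC9 and Ibsp at 263 against 36.3 CPM, both opposite to SC10. The median log2 ratio of the fibrous matrix list was -0.62 in SC4, -0.84 in SC5, -0.45 in SC9 and -0.50 in SC10, so it was below 0 in the 4 libraries. That of the mitotic kinase and checkpoint list was 3.72, 3.44, 4.68 and 4.29.

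Lists of lineage genes differed between the libraries. The progenitor list had a median log2 ratio of -0.59 in SC4, -0.35 in SC5, -1.64 in SC9 and -0.23 in SC10. The chondrocyte list had -0.44, -1.27, 1.01 and -0.45, over 4, 3, 8 and 8 tested genes. In SC9 Col2a1 was at 1611 CPM in the 47 dividing cells against 248 CPM in the 279 others, and Acan, aggrecan, at 747 against 331 CPM. With the deep shared barcodes kept (204 and 516 cells) Col2a1 was at 3396 against 300 CPM and Acan at 1333 against 275 CPM. In SC10 Acan was at 67.9 against 93.3 CPM, in SC4 at 39.5 against 30.1 CPM and in SC5 at 4.75 against 3.30 CPM. Sox9 was at 509 against 281 CPM in SC9, 96.2 against 158 in SC10, 85.5 against 102 in SC4 and 104 against 127 in SC5. Dividing cells were thus the higher group for all 3 genes in SC9. In SC10 they were the lower group for Acan and Sox9, and for Col2a1 only against cells of matched depth. The difference between the libraries was not tested.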

How the data were processed

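UMI counts per gene and barcode were used as deposited. The authors made them with Cell Ranger count on mm10 (the file headers name version 3.1.0, the study's methods another) from 10x Chromium 3′ libraries, and filtered barcodes by Cell Ranger. The submitters' processing notes also list Seurat 3.1.2. Counts were summed over the cells of a group and scaled to a total of 1000000 (CPM). Genes with a mean of 10 CPM over both groups were compared as log2 ratios of CPM plus 1, and folds without the added value carry exact conditional binomial 95% intervals. Shares carry exact Clopper-Pearson intervals, and the limit for a count of 0 is 3 counts. No cell or gene was tested, as cells are not replicates. The samples held 18247307 (SC3), 100403837 (SC4), 56084145 (SC9), 103780343 (SC5) and 204474562 (SC10) UMIs.

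The members and the gene lists were chosen with earlier results of these data known. In each list the genes with the highest CPM in dividing cells and those past 2-fold against its direction were named, and outside the lists, among genes at 50 CPM or more in the higher group, the 12 with the largest and the 12 with the smallest log2 ratio, leaving out mt-, Rpl, Rps, Gm and Rik names. Other named genes were chosen after their values were seen. In the other libraries barcodes shared with any library were left out. Doublets were kept in the main counts, because Scrublet (scanpy 1.11.5) set a threshold that marked no cell. As an alternative the highest scores, at 0.8% per 1000 cells, were left out. The calculations used Python 3.11.15, numpy 2.4.6, scipy 1.17.1 and pandas 2.3.3 and were checked on simulated data. Cells were thinned to 5000 UMIs by random draws with a fixed seed. Other alternatives were 3 or 5 rule genes, 10000 UMIs, a comparison group of matched depth, median-of-ratios scaling, a pseudocount of 0.1 CPM and no level filter.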

Additional observations from a re-analysis of the deposited data

Results flagged for a closer look

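The median of the cartilage genes lay on opposite sides of 0 in the dividing cells of 2 libraries. The median log2 ratio of dividing cells over cells with none of the rule genes, over the 8 chondrocyte genes past the level filter in both, was 1.01 in SC9 and -0.45 in SC10. In SC10, Col2a1 at a log2 ratio of 0.18 and Hapln1 at 0.35 were above 0, and against cells of matched depth they were at -0.49 and -0.36, below 0 like the other 6. In SC9 all 8 were above 0, with Col2a1 at 2.69 and Hapln1 at 2.29. With the deep shared barcodes kept in SC9 the median was 1.89. The difference was not tested, since each condition has 1 library, and the label of SC9 is in doubt.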

How the results depend on the processing

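No paired analysis was possible because each condition has 1 library. Depth limits the rule most: thinned to 5000 UMIs before it, 487 cells met it in SC10. Non-dividing cells of matched depth shared only the range of depth, with a median of 19084 UMIs against 25782 in the dividing cells. Against them, 58 genes in place of 137 were at least 2-fold lower, and 1 fibrous matrix gene in place of 2. The log2 ratio of Rgs5 was 0.63 in place of -1.57. The cause was not tested. Without the level filter 529 genes were higher and 326 lower, as more genes were compared. Other alternatives left the 323 higher genes between 305 and 346, the 137 lower between 111 and 184 and the 140 listed cell cycle genes between 138 and 143. Without the highest doublet scores 1812 cells met the rule. Shares of dividing cells in SC4, SC5, SC9 and SC10 were 0.522%, 0.272%, 2.90% and 4.49% after thinning. With 3 rule genes they were 21.9%, 17.2% and 24.8% in SC4, SC5 and SC10, with 5 rule genes 8.96%, 5.86% and 16.0%, and at 10000 UMIs 17.2%, 13.4% and 22.9%, with 4.76% (1 of 21 cells) in SC3. With shared barcodes kept, SC5 was at 12.7% and SC9 at 14.5%. The alternative that kept a shared barcode where it was 10 times deeper was chosen after seeing the data. It gave 12.6% in SC5 and 14.5% in SC9, and after thinning 0.435%, 0.300%, 4.12% and 4.82% in SC4, SC5, SC9 and SC10. In SC10 the thinned count was 487 of 10839 cells before and 523 of 10840 here, so more than the kept barcodes changed. The part of the random draw was not tested.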
